A study of Mus musculus with 24 samples.

Results

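The microRNAs mmu-miR-320-3p and mmu-miR-484 are described here in extracellular vesicles (EVs) from the serum of mice that had undergone orthopaedic surgery. They are 2 of the 1966 mature microRNAs in the count table. Both are known as mature products of short hairpins whose processing does not need Drosha, and both were chosen from their measured levels in these same 4 groups, so their levels, folds and likeness are given as a description with no test of the members. All 24 libraries came from separate wild-type C57BL/6 mice of 14 to 16 weeks, with 6 mice in each of 4 groups. Mice in the Surgery_6h, Surgery_24h and Surgery_72h groups (S6h, S24h and S72h in the plots) had an open fracture of the tibia, fixed with an intramedullary pin under isoflurane with buprenorphine analgesia, and serum was taken 6, 24 or 72 h later. The 24 h and 72 h mice received analgesia daily, whereas the Control mice received saline. The Control libraries came from the control mice assigned to the 6 h group, and the control mice assigned to the 24 h and 72 h groups were not analysed here. Surgery, isoflurane and buprenorphine cannot be told apart at any time, 6 h included. At 24 and 72 h the time after surgery, the repeated analgesia and any difference between those sets of control mice therefore cannot be told apart.

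Most microRNA precursors are cut out of long primary transcripts by the nuclear enzyme Drosha and its partner Dgcr8. The miR-320 precursor is instead transcribed directly as a short capped hairpin, exported from the nucleus by Exportin 1 and cut by Dicer, and miR-484 is placed in the same class. Mature miR-484 has been used as a reference in serum and plasma measurements. Neither Drosha processing nor the cap was measured in these libraries, so membership of this class could not be checked from the counts. A table of microRNAs likewise holds no protein marker of EVs.

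The sequence of miR-484 is shown because its base composition bears on how it was measured, and those of miR-423-5p, miR-423-3p and miR-221-3p because their levels followed the members most closely. Sequences were taken from RefSeq annotation of GRCm38.p6, where 1 of the 2 members, miR-484, was matched. Capitals mark the seed, bases 2 to 8 from the 5′ end, which pairs with target mRNAs.
mmu-miR-484: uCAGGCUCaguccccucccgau
mmu-miR-423-5p: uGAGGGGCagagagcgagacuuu
mmu-miR-423-3p: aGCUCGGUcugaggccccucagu
mmu-miR-221-3p: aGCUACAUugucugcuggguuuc
The 4 seeds differ from each other, and none of the other microRNAs in the table with a sequence (1675 matched in all) shared the seed of miR-484. Mature miR-484 is 22 bases long and lies at chr16:14159630-14159651 on the plus strand. Its GC content was 63.6%, against a median of 47.6% over the tested microRNAs with a sequence. Of those 220 microRNAs, 21 had at least the GC content of miR-484, itself included.

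The annotated miR-484 hairpin is shown next, and its length does not tell how it was processed. Capitals mark the mature microRNA within it.
mmu-miR-484 hairpin: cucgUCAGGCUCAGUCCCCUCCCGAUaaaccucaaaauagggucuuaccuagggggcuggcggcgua
The hairpin spans 67 bases at chr16:14159626-14159692, with the mature sequence at bases 5 to 26, in the 5′ arm. It lies inside Marf1, which is transcribed from the opposite strand, and the 3′ end of the hairpin overlaps a Marf1 exon while the mature sequence does not. The Mir320 hairpin lies at chr14:70443510-70443591 on the plus strand of GRCm38 and overlaps no other annotated gene. Its nearest neighbour is Polr3d, a subunit gene of RNA polymerase III, whose start lies 62 bases away on the minus strand, so that the genes are transcribed away from each other.

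Levels are given as CPM, the reads of a microRNA per 1000000 reads assigned to mature microRNAs in that library. CPM is a share, so a higher value can stand for more of that microRNA or less of others, and more vesicles of one origin cannot be told apart from more RNA per vesicle. Library totals ran from 63956 to 263211 counts in Control, from 102568 to 471801 at 6 h, from 66652 to 143856 at 24 h and from 65017 to 245013 at 72 h. Both members were counted in every library, with at least 128 reads. Counting error alone gave a coefficient of variation of 1.65% to 8.84% for a single value. Whether duplicate reads were collapsed to molecules was not stated, so this and the intervals cover counting error only.

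Mature miR-320-3p was the more abundant of the pair in all 4 groups, and its group mean was highest at 24 h. In Control its level was 10353, 9538, 9012, 3799, 5867 and 7043 CPM in replicates 1 to 6. At 6 h it was 5256, 4900, 7553, 4063, 3490 and 3892 CPM. At 24 h it was 18804, 14594, 30025, 16519, 21218 and 15585 CPM. Every mouse at 24 h therefore lay above every Control mouse and every 6 h mouse, while the Control and 6 h groups overlapped. At 72 h the level was 14971, 14579, 7166, 6685, 17103 and 13446 CPM, with 4 of 6 mice above the highest Control mouse and 2 within the Control range.

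The means were 7602 ± 2493 CPM in Control, 4859 ± 1474 CPM at 6 h, 19457 ± 5701 CPM at 24 h and 12325 ± 4350 CPM at 72 h (SD, n = 6 mice each). The order of the means was 6 h, Control, 72 h and 24 h, and in each neighbouring pair of that order the ranges overlapped. By abundance within a library, miR-320-3p ranked between 22nd and 42nd in Control and between 33rd and 51st at 6 h. At 24 h it ranked between 8th and 21st. The highest single value, 30025 CPM in replicate 3 at 24 h, rested on 3592 reads (95% Wilson interval 29073 to 31007 CPM).

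Mature miR-484 followed the same order at a lower level. In Control it was at 4597, 2940, 5219, 954, 2995 and 2535 CPM in replicates 1 to 6. At 6 h it was at 1652, 1353, 3017, 1299, 2252 and 1593 CPM. At 24 h it was at 6019, 6585, 8877, 6406, 4908 and 5804 CPM. The 24 h mice all lay above the 6 h mice, and 5 of 6 lay above the highest Control mouse. After scaling by trimmed-mean (TMM) library factors, replicates 5 and 6 at 24 h were at 4512 and 4787 CPM. Both then lay below the highest Control value of 5278 CPM. At 72 h miR-484 was at 4779, 7276, 3872, 2724, 6106 and 4746 CPM by column totals, with 2 of 6 mice above the highest Control mouse.

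The mean level of miR-484 was 3206 ± 1525 CPM in Control, 1861 ± 660 CPM at 6 h, 6433 ± 1333 CPM at 24 h and 4917 ± 1608 CPM at 72 h (SD, n = 6 mice each). Neighbours in the order of means overlapped here too. The spread relative to the mean was widest in Control, with a coefficient of variation of 47.6%, and narrowest at 24 h, with 20.7%. For miR-320-3p it lay between 29.3% and 35.3% in all groups. The lowest value of either member, 954 CPM of miR-484 in Control replicate 4, rested on 128 reads (95% Wilson interval 802 to 1134 CPM). The same Control mouse had the lowest miR-320-3p of its group. The 2 arms of miR-122, the microRNA of liver cells, made up 15.7% of its counts. In Control replicates 1, 2, 3, 5 and 6 they made up 16.0%, 0.371%, 0.998%, 0.693% and 12.7%. The part of miR-122 in these levels was not tested.

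**Figure D1:**
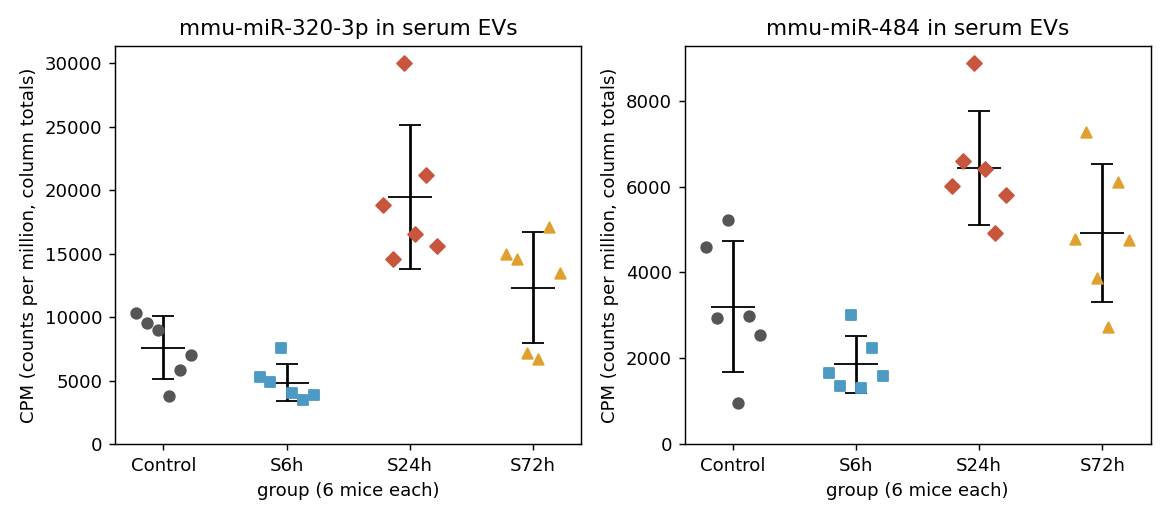
Level of miR-320-3p and miR-484 in CPM (linear vertical axis from 0) in each of the 24 libraries by group, where points are mice and bars show the mean ± SD of 6 mice. The group means of both members are lowest at 6 h and highest at 24 h, and for miR-320-3p no mouse at 24 h falls within the Control range.

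To set the members against all other microRNAs, edgeR's quasi-likelihood model was fitted to the 252 microRNAs with 10 CPM or more in 12 or more of the libraries, both members among them. A microRNA was called changed at a Benjamini-Hochberg adjusted p below 0.05 with a change of at least 1.5-fold. Folds are log2 values on the scale of trimmed-mean (TMM) library factors, with the standard error (SE) in brackets. The shares of all 252 that were called are given as background. Because the members were chosen with their levels in these groups known, their own calls are not given. Their place among the 252 is described without a test.

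At 6 h after surgery both members had values below Control. The fitted log2 fold change was -0.61 (SE 0.28) for miR-320-3p and -0.76 (SE 0.30) for miR-484, against a median of -0.02 over the tested microRNAs. The ratios of mean CPM were 0.639 and 0.580. All 6 mice had miR-320-3p below the Control median, and 5 of 6 had miR-484 below it, with overlapping ranges for both. No microRNA was called by edgeR at 6 h (0%, 0 of 252), where 9 had an unadjusted p below 0.05. DESeq2 also called 0, with 13 below that unadjusted threshold. In these libraries the summed share of 5 skeletal muscle microRNAs (miR-1a-3p, miR-133a-3p, miR-133b-3p, miR-206-3p and miR-499-5p) was 6.02% to 26.5%, against 3.42% to 9.02% in Control, with 5 of 5 log2 fold changes above 0 and 0 called. The erythroid share was 7.28% to 12.4% at 6 h and the share of the liver microRNA miR-122 was 0.221% to 2.83%, against 10.4% to 18.9% and 0.371% to 16.0% in Control. The part of these shares in the lower CPM of the members was not tested.

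At 24 h both members had their highest values relative to Control. Fitted log2 fold changes were 1.19 (SE 0.29) for miR-320-3p and 0.83 (SE 0.30) for miR-484, and the ratios of mean CPM were 2.56 and 2.01. Of the tested microRNAs, 3.97% (10) were called higher and 7.94% (20) lower at that time. The 24 h and Control ranges did not overlap, in the upward direction, for 2.38% of tested microRNAs (6), and miR-320-3p was one of these. The median of all tested microRNAs was -0.21 at 24 h and moved to 0.08 with upper-quartile factors, under which 23 were called higher and 17 lower. Measured from the median of all tested microRNAs, miR-320-3p lay 1.39 to 1.44 above it and miR-484 lay 1.04 to 1.11 above it in 7 ways of scaling or testing the libraries. A change of library factors moves the folds of all microRNAs nearly alike, so this narrow range does not test the members. The log2 fold changes themselves ran from 1.19 to 1.52 and from 0.83 to 1.19 in the same 7 ways.

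Correction for GC content could be applied to miR-484. It subtracted the trend of log2 fold change with GC content over the tested microRNAs with a sequence, and left 0.55 at 24 h. That value is a distance from the trend, whose own level is subtracted too, and not a fold against Control. The value nearest to it in kind is the 1.04 above the median of all tested microRNAs, not the fold of 0.83. Across the 220 tested microRNAs with a sequence, GC content and the log2 fold change had a Spearman rho of 0.02 (6 h), 0.24 (24 h) and 0.10 (72 h), as a description across microRNAs that share the same libraries. The 5 erythroid microRNAs (miR-451a, both arms of miR-144, miR-486a-5p and miR-486b-5p) took a smaller share of the counts at 24 h (2.97% to 12.2%) than in Control (10.4% to 18.9%), with overlapping ranges, and 3 of the 5 were called lower, with a median log2 fold change of -1.26. The skeletal muscle share was 1.57% to 4.36% at 24 h, with 1 of 5 log2 fold changes above 0, a median of -0.78 and 0 called. The miR-122 share was 0.789% to 5.22%, and the log2 fold change of the 1 arm tested was -1.98, not called. When the library factors were taken without those erythroid microRNAs, the 24 h values were 1.25 for miR-320-3p and 0.90 for miR-484.

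At 72 h the values stood between those of Control and 24 h. Relative to Control the fitted log2 value was 0.75 (SE 0.29) for miR-320-3p and 0.65 (SE 0.30) for miR-484, and the ratios of mean CPM were 1.62 and 1.53. At that time 1.98% of tested microRNAs (5) were called higher and 1.59% (4) lower. No tested microRNA had a 72 h range wholly above the Control range (0%). Replicate 4 at 72 h stood apart, with 29.98% of its counts from the liver microRNA miR-122 and the smallest TMM factor of the series. On the TMM scale its miR-320-3p moved from 6685 to 11152 CPM and its miR-484 from 2724 to 4545 CPM. Over the 72 h group the miR-122 share was 0.477% to 29.98%. The skeletal muscle share was 0.644% to 23.7%, highest in replicate 1, with 3 of 5 log2 fold changes above 0 and 0 called. The erythroid share was 4.17% to 17.02%, with 0 of 5 above 0, a median log2 fold change of -0.88 and 0 called.

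Among the surgery times, the widest separation lay between 6 and 24 h. The log2 fold change of 24 h against 6 h was 1.79 (SE 0.29) for miR-320-3p and 1.59 (SE 0.31) for miR-484 on the TMM scale, and the ratios of mean CPM, scaled by column totals, were 4.004 and 3.457. The ranges did not overlap for either member, as for 4.76% of tested microRNAs (12) in the upward direction. From 24 to 72 h the log2 change was -0.43 (SE 0.28) for miR-320-3p and -0.18 (SE 0.30) for miR-484, and the ranges overlapped.

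**Figure D2:**
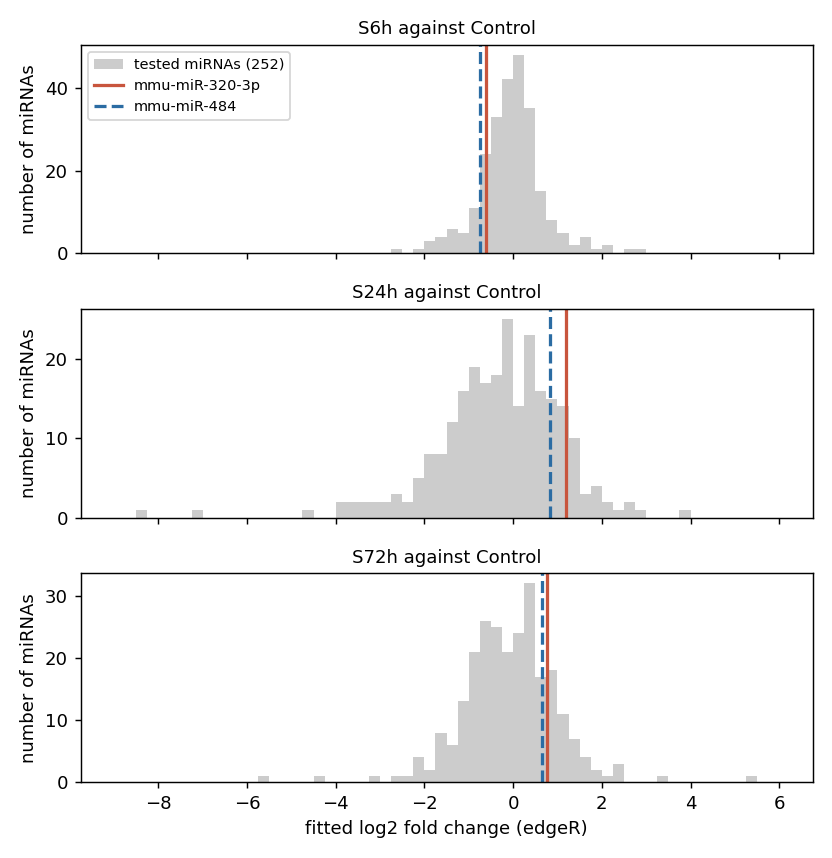
Distribution of fitted log2 fold changes against Control (horizontal axis, bins of 0.25) over the 252 tested microRNAs at each time after surgery, with vertical lines at the 2 members. Both members lie left of the median of the tested microRNAs at 6 h and right of it at 24 and 72 h, with miR-320-3p at 1.19 and miR-484 at 0.83 at 24 h.

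The 2 members kept a similar proportion to each other in all groups. The ratio of miR-320-3p to miR-484 does not depend on library scaling. It was 2.66 ± 0.85 in Control (range 1.73 to 3.98), 2.74 ± 0.73 at 6 h (1.55 to 3.62), 3.05 ± 0.75 at 24 h (2.22 to 4.32) and 2.51 ± 0.50 at 72 h (1.85 to 3.13; SD, n = 6 mice each). The ranges of all 4 groups overlapped.

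**Figure D3:**
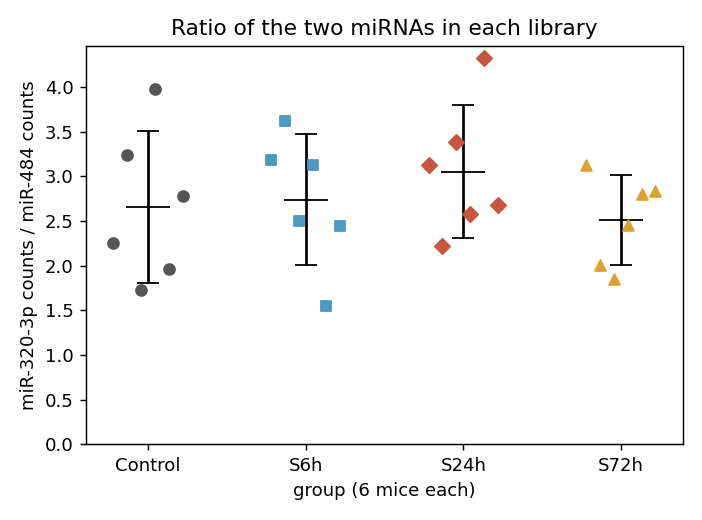
Ratio of miR-320-3p to miR-484 reads in each library by group, with points for mice and bars for the mean ± SD of 6 mice. The ratio lies between 1.55 and 4.32 in all libraries and the groups overlap.

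Across the 24 libraries the log2 CPM values of the members had a Pearson r of 0.91 and a Spearman rho of 0.90. Without the 2 libraries farthest from the median of miR-320-3p the r was 0.92. After each group's mean was taken out the r was 0.74, so mice with more miR-320-3p than their group also tended to have more miR-484. Within the groups of 6 the r was 0.89 in Control, 0.51 at 6 h, 0.51 at 24 h and 0.86 at 72 h. These are descriptions, since both values of a point share a library and its total. The r with the log2 library total was -0.45 for miR-320-3p and -0.51 for miR-484, and 0.03 and -0.15 after group means were taken out.

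**Figure D4:**
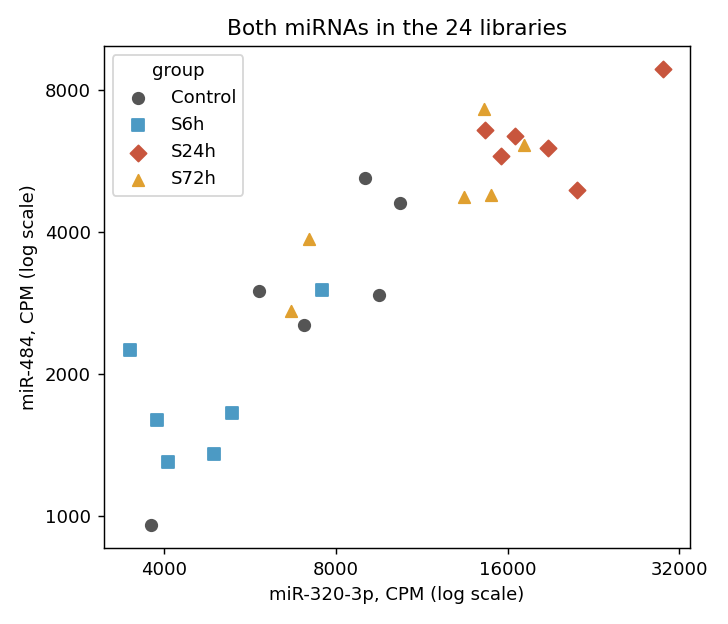
Level of miR-484 against miR-320-3p in CPM on log axes, with 1 point per library coloured by group. The 24 h libraries lie at the upper right and the 6 h libraries at the lower left, and the r over all 24 libraries is 0.91.

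Each member was compared with the 165 other microRNAs whose mean level reached 100 CPM. The ones most like miR-320-3p by Pearson r of log2 CPM over the 24 libraries were miR-423-5p (0.95), miR-423-3p (0.93) and miR-484 (0.91). Those most like miR-484 were miR-221-3p (0.94), miR-423-5p (0.94) and miR-423-3p (0.93), with miR-320-3p in sixth place. After group means were taken out, the r of miR-320-3p with miR-423-5p was 0.80 and that of miR-484 with miR-221-3p was 0.85. The miR-423 and miR-221 hairpins are processed by Drosha, as background, so microRNAs with the most similar values came from outside the class as well as from within it.

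The levels of these neighbours had the same order over the groups. The mean of miR-423-5p was 10523 CPM in Control, 6826 CPM at 6 h, 23055 CPM at 24 h and 15949 CPM at 72 h. The mean of miR-221-3p, a microRNA known from vascular endothelium, was 8604, 5931, 17279 and 14048 CPM in the same groups. The mean of miR-423-3p was 4144, 3223, 10528 and 8144 CPM.

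Other microRNAs that bypass Drosha gave far fewer reads. The list held 12 mature forms: the other arm of miR-320, arms of the mirtrons miR-702, miR-877 and miR-1224, whose precursors are released by splicing, arms of miR-664 and miR-1839, which come from small nucleolar RNA genes, and miR-1983, which comes from a tRNA gene. The opposite arm miR-320-5p, as well as miR-702-5p and miR-1224-3p, had 0 counts in all 24 libraries, which allows up to 0.893 CPM over all libraries together. Of the 12, 6 passed the abundance filter and 0 were called by edgeR in either direction at any time. The lowest adjusted p-values of its quasi-likelihood test were 0.99 at 6 h, 0.119 at 24 h and 0.402 at 72 h. Over all tested microRNAs 0% were called at 6 h. At 24 h 3.97% were called higher and 7.94% lower, and at 72 h 1.98% and 1.59%. At such shares a count of 0 among 6 tells nothing particular to this list. The median log2 fold change of those 6 was 0.12 (6 h), 0.97 (24 h) and 0.43 (72 h), beside -0.02, -0.21 and -0.06 over all tested microRNAs.

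The most abundant of them, miR-1839-5p, had reads in 24 of 24 libraries. Its level was 593 ± 291 CPM in Control, 579 ± 177 CPM at 6 h, 562 ± 423 CPM at 24 h and 766 ± 394 CPM at 72 h (SD, n = 6 mice each). The log2 fold change at 24 h was -0.24 (SE 0.44, adjusted p = 0.776 by edgeR's quasi-likelihood test). Its value at 24 h thus lay below Control in the direction opposite to the members, within its SE. A larger value was that of miR-664-5p at 24 h, with a log2 fold change of 2.72 (adjusted p = 0.119 by the same test). It rested on at most 48 reads in a library, at 31.7 ± 35.8 CPM in Control and 226 ± 178 CPM at 24 h. The log2 value of miR-1983 at 24 h was 2.91 (SE 1.46, adjusted p = 0.176), at no more than 23 reads in a library. The remaining 3 that passed were miR-664-3p at 1.76 (SE 1.52), miR-877-5p at 0.19 (SE 1.37) and miR-877-3p at -0.47 (SE 1.26), at no more than 71 reads in a library.

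Blood and tissue marker microRNAs were set beside the members because serum EVs come from many cells. The platelet list (miR-223-3p, miR-126a-3p, miR-199a-3p and miR-199b-3p) held 0.547% to 1.28% of counts in Control, 0.879% to 1.53% at 6 h, 0.666% to 1.105% at 24 h and 0.574% to 1.34% at 72 h, overlapping in all groups. The median log2 fold change of the 4 platelet microRNAs against Control was 0.50 at 6 h, with 4 of 4 values above 0 and 0 called. It was -1.15 at 24 h, with 1 of 4 above 0 and 1 called lower, and -0.44 at 72 h, with 1 of 4 above 0 and 0 called. Of all tested microRNAs, 7.94% (20) were called lower at 24 h and 1.59% (4) at 72 h. Over the 24 libraries the r of the summed log2 share with miR-320-3p was -0.43 for erythroid, -0.54 for skeletal muscle, -0.14 for liver and -0.37 for platelet markers. For miR-484 it was -0.32, -0.60, -0.18 and -0.36 in the same order. A larger share of one microRNA lowers the CPM of all others, and no marker of these lists was at 0 in all libraries. The part of these tissues in the members' levels was not tested.

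**Figure D5:**
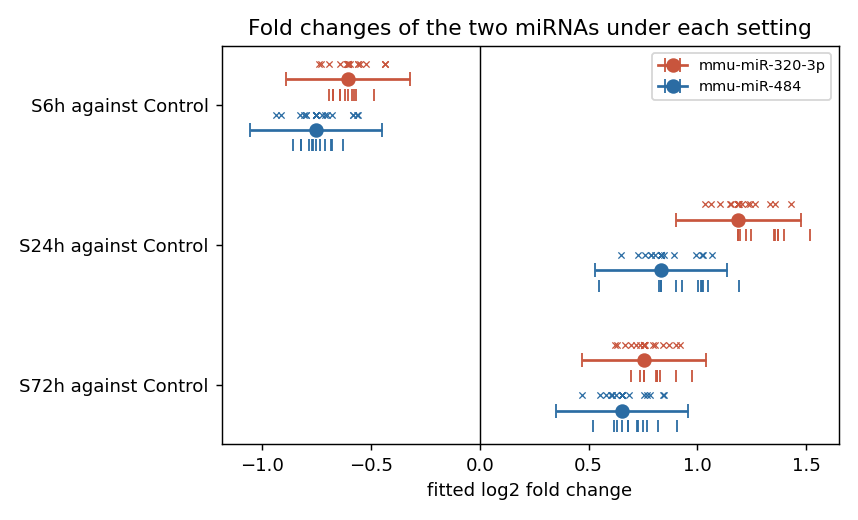
Fitted log2 fold change against Control of each member at 6, 24 and 72 h (circles with bars of 1 SE), with crosses for fits that left out 1 mouse and vertical ticks for the other ways of processing the counts. All values of both members lie below 0 at 6 h and above 0 at 24 and 72 h. The GC-corrected tick of miR-484 is a distance from the GC trend.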

How the data were processed

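Small RNA was sequenced from serum EVs precipitated with ExoQuick ULTRA, using a NEXTFLEX kit with random adapter bases. The authors trimmed reads with cutadapt, aligned them with Bowtie to mm10, kept reads of 20 to 24 bases and deposited featureCounts counts per mature miRBase microRNA, unnormalised. Removal of PCR duplicates was not stated in the sources used here.

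The 24 libraries of 4 groups, 6 mice each, were analysed. CPM was computed from column totals. The counts were fitted with edgeR 4.0.16 (quasi-likelihood, TMM, 1 model of 4 groups) in R 4.3.3 for 252 microRNAs with at least 10 CPM in at least 12 libraries, with Benjamini-Hochberg adjustment. DESeq2 1.42.0, the tool used in the study, was an alternative, as were other scalings, filters, GC correction and leaving out each mouse. The script was tested on simulated data. Members and lists were chosen with earlier results of these data known. The text named the members, the 3 microRNAs most like each of them, the other arm of miR-320 and, from a list of other Drosha-independent microRNAs, those that passed the filter or had no counts, beside 4 lists of blood and tissue markers. No pair of libraries had counts within sampling noise of each other.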

Additional observations from a re-analysis of the deposited data

How the results depend on the processing

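The log2 fold changes of both members against Control kept their direction in every alternative and every fit without 1 mouse. The members were chosen from these levels, so this is a description. Many of these fits left out a mouse of a group not compared, which mostly left the fold nearly unchanged. Without 1 mouse, miR-320-3p ranged from -0.74 to -0.44 at 6 h, 1.03 to 1.43 at 24 h and 0.62 to 0.92 at 72 h, and miR-484 from -0.94 to -0.56, 0.65 to 1.07 and 0.47 to 0.85. Over the other alternatives the 24 h values ran from 1.19 to 1.52 for miR-320-3p and from 0.55 (GC correction) to 1.19 for miR-484, with 1.02 for the latter in DESeq2. At 72 h they ran from 0.70 to 0.98 and from 0.52 to 0.91. The lowest values of miR-484 at both times came from GC correction and are distances from the GC trend, not folds against Control. GC correction of miR-320-3p was not run. Counts of calls over all microRNAs moved more. At 24 h the 30 calls (10 higher, 20 lower) became 50 with DESeq2 (23 and 27), 18 higher and 19 lower with DESeq2 size factors in edgeR, 17 and 20 with column totals, 23 and 17 with upper-quartile factors, and 20 to 42 without 1 mouse. At 72 h the 9 calls became 21 with DESeq2, 2 with column totals, 19 with upper-quartile factors (16 higher), 5 and 16 with factors taken without the erythroid list or the 10 most abundant microRNAs, 18 with a mean of at least 100 CPM, 0 with only the 2 groups compared, and 1 (without Control replicate 2 or 5 or 72 h replicate 5) to 14 (without 72 h replicate 1) without 1 mouse. At 6 h the 0 calls became 2 with no filter. The cause of these shifts was not tested. With a replicate block the calls were 32 at 24 h and 1 at 72 h, and the members' 24 h values were 1.23 and 0.93. No pairing of same-numbered libraries was given. The correlation of their deviations ran from -0.11 to 0.14, and 5 of 18 surgery libraries correlated best with their own number. These were replicates 1, 3 and 5 at 6 h and replicates 2 and 4 at 72 h. Whether same-numbered libraries were handled together was not tested. A single read in the smallest library was worth 15.6 CPM, which limits the low microRNAs and not the members.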
